A study of Homo sapiens with 12 samples.

Results

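The genes of the oxygen-sensing pathway described here are the hypoxia factors EPAS1 (also called HIF2A), HIF1A and ARNT, their negative regulators EGLN1, EGLN3 and VHL, and the target genes VEGFA, CA9, BNIP3 and NDRG1. These 10 genes were listed with earlier results of these arrays known, and 9 of the 10 had a probe set with that symbol in the platform annotation, out of 18244 genes tested. CA9, a carbonic anhydrase used as a marker of hypoxic tumours, was not analysed here. The 9 genes had 41 probe sets, and for each gene the probe set was chosen by its mean over the 12 arrays, the highest being used. The study asked how neuroblastoma cells respond to THZ531, a covalent inhibitor of the kinases CDK12 and CDK13, which phosphorylate RNA polymerase II during elongation. Kelly and IMR-32 cells, established lines of human neuroblastoma, a childhood tumour of the sympathetic nervous system, were each exposed for 6 h to the solvent DMSO, to THZ531 at 100 nM or to THZ531 at 400 nM, and total RNA with ERCC spike-in RNA was hybridised to PrimeView arrays. There were 6 groups of 2 arrays from biological duplicates, so each line stands for itself and precision is limited by how few arrays there are. All values are linear probe set intensities scaled between arrays to the spike-ins, and a level of one probe set cannot be set against that of another.

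HIF1A and EPAS1 are alternative alpha subunits of a transcription factor whose constant partner is ARNT. With oxygen present, the prolyl hydroxylases EGLN1 and EGLN3 mark the alpha subunits for the ubiquitin ligase that contains VHL, and they are degraded. Without oxygen they persist, pair with ARNT and bind the core motifs ACGTG or GCGTG near genes such as VEGFA. EPAS1 is expressed in the sympathoadrenal lineage from which neuroblastoma arises. The control lies largely in protein turnover, which RNA arrays do not measure.

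Promoter windows of 300 bases, from 250 before to 50 after the gene start, were taken from RefSeq for 7 of the 10 genes. NDRG1 was left out without a search. The windows of EPAS1, EGLN1 and BNIP3 are shown because EPAS1 set the lines apart and because EGLN1 and BNIP3 are classic targets that fell in IMR-32 cells. Capitals mark ACGTG or GCGTG, or their reverse complements CACGT and CACGC, and ACGTG can overlap its own complement in CACGTG.
EPAS1: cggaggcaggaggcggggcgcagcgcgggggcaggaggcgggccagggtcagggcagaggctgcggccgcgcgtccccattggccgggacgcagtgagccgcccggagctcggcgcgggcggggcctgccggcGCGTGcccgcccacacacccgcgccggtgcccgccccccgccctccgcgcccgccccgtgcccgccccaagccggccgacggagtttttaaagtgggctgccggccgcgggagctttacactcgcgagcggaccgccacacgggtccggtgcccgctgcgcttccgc
EGLN1: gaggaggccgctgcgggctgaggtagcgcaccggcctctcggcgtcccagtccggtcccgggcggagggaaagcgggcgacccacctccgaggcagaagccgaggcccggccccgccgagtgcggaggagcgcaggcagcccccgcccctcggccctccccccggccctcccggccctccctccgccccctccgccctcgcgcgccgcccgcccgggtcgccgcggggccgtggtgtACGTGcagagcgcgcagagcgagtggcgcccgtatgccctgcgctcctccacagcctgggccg
BNIP3: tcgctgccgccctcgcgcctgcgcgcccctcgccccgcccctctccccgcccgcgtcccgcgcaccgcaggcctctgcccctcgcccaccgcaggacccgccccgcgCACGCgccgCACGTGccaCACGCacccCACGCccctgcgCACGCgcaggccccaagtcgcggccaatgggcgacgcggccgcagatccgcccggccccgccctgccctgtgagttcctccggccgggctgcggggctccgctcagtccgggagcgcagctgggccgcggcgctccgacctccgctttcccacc
On GRCh38.p14 these windows are chr2:46297157-46297456 on the plus strand for EPAS1, chr1:231422238-231422537 on the minus strand for EGLN1 and chr10:131981874-131982173 on the minus strand for BNIP3. EPAS1 held 1 match, a GCGTG that began 117 bases before the gene start. EGLN1 also held 1, an ACGTG that began 13 bases before it. BNIP3 held 6 matches, among them a CACGTG that contains ACGTG on both strands. Of the other windows, HIF1A and CA9 held 1 match each, and ARNT and EGLN3 held 0. Of 35116 promoter windows of this length, 48.4% held at least 1 match, so the letters alone single out no gene.

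Some arrays stood apart from their labels' groups, and every result on the 100 nM groups and on Kelly cells at 400 nM rests on them. The 12 arrays share 1 estimate of the spread of each gene. Those that stood apart therefore also enter the errors and adjusted p of every other comparison. Over all genes, the changes from DMSO of Kelly 400 nM replicate 1 correlated at 0.92 with those of Kelly 100 nM replicate 2, but at 0.65 with those of its own duplicate (a description across genes, which are not independent replicates). IMR-32 100 nM replicate 1 correlated at 0.92 and 0.88 with the 400 nM arrays of its line, and at 0.38 with its duplicate. The median intensity over all rows was 101.2 to 131.8 on the DMSO arrays, 59.6 to 111.7 on the 100 nM arrays and 55.9 to 87.1 on the 400 nM arrays. Of 9 markers of adrenergic neuroblastoma cells (PHOX2A and DBH among them) 8 were measured. All 8 lay above the median of all rows on both arrays of every group. So did 5 of 6 mesenchymal markers in each Kelly group and 2 to 4 of 6 in the IMR-32 groups. Of the endothelial markers 1 to 2 of 5 did, and of the blood markers 1 to 2 of 3, so this was no test of the label. Intensities were added as they stand, so the brightest probe sets weigh most in each sum. The adrenergic markers summed to 62410 to 63330 in Kelly DMSO cells against 37920 to 44920 in IMR-32 DMSO cells. At 400 nM they summed to 47870 to 48720 in Kelly against 14730 to 17310 in IMR-32 cells. They did not all differ one way between the lines, since 3 of the 8 were lower in Kelly with DMSO. CHGA had 16620 and 17690 in Kelly DMSO cells against 3668 and 4002 in IMR-32 DMSO cells, but HAND2 had 10380 and 10640 against 11040 and 14040. Of the 8, 3 were called higher in Kelly with DMSO and 6 at 400 nM, beside 1.98% and 8.58% of all genes. In IMR-32 cells 6 were called lower at 400 nM than with DMSO, beside 39.0% of all genes. Their part in the results on the hypoxia genes was not tested. Markers of endothelial cells, which express EPAS1 strongly, summed over 5 genes to 282.1 to 458.3 on all 12 arrays. Their summed range in Kelly DMSO cells, 400.0 to 413.5, lay within that of IMR-32 DMSO cells, 372.6 to 458.3. Blood markers summed to 193.6 to 336.2, and mesenchymal markers to 3399 to 5685 in Kelly and 4444 to 10570 in IMR-32 cells.

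EPAS1 had the largest difference between the lines of the 9 genes, at each dose. In Kelly cells the EPAS1 intensity was 6309 and 6551.9 with DMSO, then 8246.9 and 5708.7 with 100 nM THZ531 and 6100.8 and 6204.7 with 400 nM THZ531. In IMR-32 cells it was 80.0 and 114.1 with DMSO, then 61.2 and 97.5 with the lower dose and 56.8 and 41.7 with the higher. The lowest Kelly array was thus far above the highest IMR-32 array, and within Kelly cells the 100 nM arrays lay on either side of all others. The Kelly level was 67.3-fold that of IMR-32 with DMSO (log2 difference 6.07 ± 0.31, SE, n = 2 arrays each), 88.8-fold at 100 nM (6.47 ± 0.31) and 126-fold at 400 nM (6.98 ± 0.31). Because EPAS1 may have been listed for this pattern, these folds are given as a description without a test. The other EPAS1 probe set was also higher in Kelly, but by 2.89 with DMSO, 3.09 at 100 nM and 2.84 at 400 nM on the log2 scale, so the size of the fold depends on the probe set. The IMR-32 levels lay at the 43.5 to 46.4th percentile of rows and no detection call was used, so the folds are imprecise and no order with dose is read from them.

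**Figure D1:**
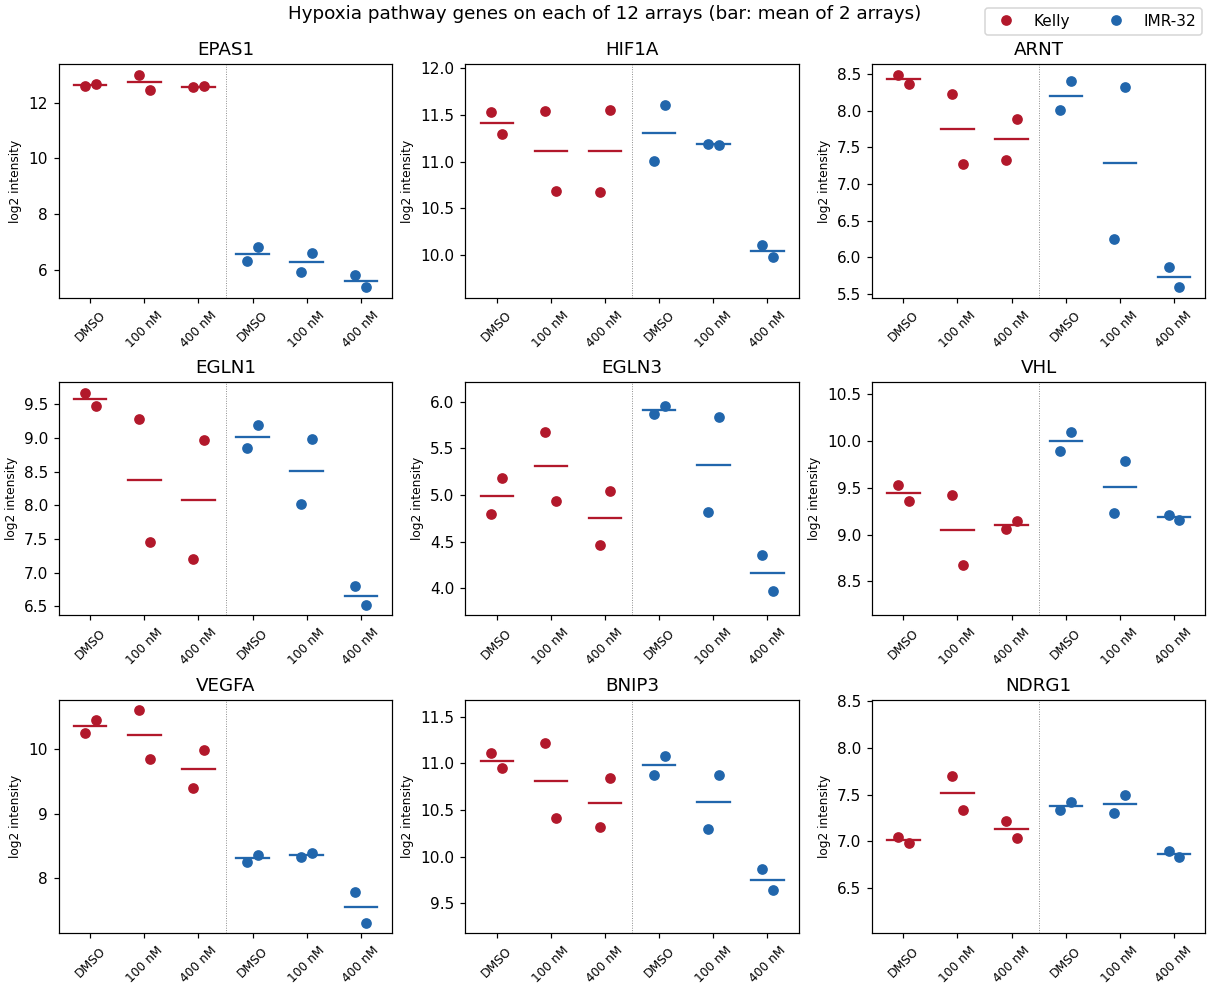
Log2 intensity (vertical axes, each panel with its own range) of 9 hypoxia pathway genes on the 2 arrays of each group, Kelly (red) left of IMR-32 (blue); points are arrays and bars are means of 2 arrays. EPAS1 and VEGFA separate the lines at every dose, and the 400 nM arrays of IMR-32 cells lie lowest of their line for all 9 genes.

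VEGFA, the main angiogenic growth factor induced by the hypoxia factors, was the other gene that differed between the lines. Its intensity in Kelly cells was 1221.1 and 1408.1 with DMSO, then 1557.6 and 923.7 with the lower dose and 679.0 and 1012.4 with the higher. In IMR-32 cells it was 304.7 and 328.5 with DMSO, then 322.2 and 333.8 with the lower dose and 220.2 and 158.2 with the higher. Every Kelly array was above every IMR-32 array. VEGFA was 4.14-fold higher in Kelly with DMSO (log2 difference 2.05 ± 0.31, limma adjusted p = 0.00515), 3.66-fold at 100 nM (1.87 ± 0.31, limma adjusted p = 0.00885) and 4.44-fold at 400 nM (2.15 ± 0.31, limma adjusted p = 0.00369). Of its 9 other probe sets, 7 passed the same test with DMSO and none was called lower, with log2 differences of -0.10 to 2.21. The limma adjusted p with DMSO was 0.0631 without Kelly DMSO replicate 2 and 0.0526 without IMR-32 DMSO replicate 1, and at 400 nM it was 0.0513 without IMR-32 400 nM replicate 2.

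EPAS1 is left out of the following counts. With DMSO, VEGFA was the 1 gene called higher in Kelly, against 1.98% of all genes, and 0 were called lower, against 3.02% of all genes. VEGFA was again the 1 gene called at 100 nM, where 2.73% of all genes were higher and 2.92% lower. The same held at 400 nM, where 8.58% were higher and 1.69% lower. At an unadjusted limma p under 0.05, 1 gene, EGLN3, was lower in Kelly with DMSO and 0 at 100 nM and 400 nM. VEGFA was higher with DMSO and at both doses, and HIF1A, ARNT and BNIP3 were also higher at 400 nM. Of all 18244 genes, 1811, 2396 and 702 were lower at that level with DMSO, 100 nM and 400 nM, and 1023, 1334 and 4208 higher. The list was drawn up with earlier results known, so neither its counts nor the adjusted p of VEGFA are independent evidence. HIF1A, the other alpha subunit, had 2969.1 and 2505.3 in Kelly DMSO cells and 2064.4 and 3111.7 in IMR-32 DMSO cells. These arrays overlapped, and the log2 difference of 0.11 had a 95% interval of -0.73 to 0.94, which leaves room for moderate differences in either direction.

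ARNT, VHL, the hydroxylases and the targets other than VEGFA showed no called difference between DMSO-treated lines. Among the probe sets with the highest mean EGLN3 came nearest, with 27.7 and 36.4 in Kelly DMSO cells and 58.3 and 61.9 in IMR-32 DMSO cells. Its log2 difference was -0.92 ± 0.39 (limma adjusted p = 0.302). Its probe set was dim, at or below the 34th percentile of rows in every group. Both other EGLN3 probe sets lay at -1.01 and 0.07, also not called. VHL had 740.5 and 656.6 in Kelly DMSO cells and 953.7 and 1094.7 in IMR-32 DMSO cells, without overlap, but did not pass (log2 difference -0.55 ± 0.29, limma adjusted p = 0.433). NDRG1, a stress-responsive gene that hypoxia induces and N-myc represses, had 131.9 and 126.4 in Kelly against 160.9 and 171.6 in IMR-32 (-0.36 ± 0.20, limma adjusted p = 0.47). All 5 other NDRG1 probe sets were also lower in Kelly, by -1.07 to -0.25, none called. The log2 differences of ARNT (0.22 ± 0.60), EGLN1 (0.55 ± 0.68) and BNIP3 (0.05 ± 0.33), a mitochondrial protein of mitophagy and cell death, were smaller than or close to their errors. Both other EGLN1 probe sets were higher in Kelly by more than their errors, at 0.97 ± 0.37 and 0.67 ± 0.30. The 4 others of ARNT lay at 0.33 to 0.46, and those of BNIP3 and VHL at -0.06 and -0.50. None of these was called.

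**Figure D2:**
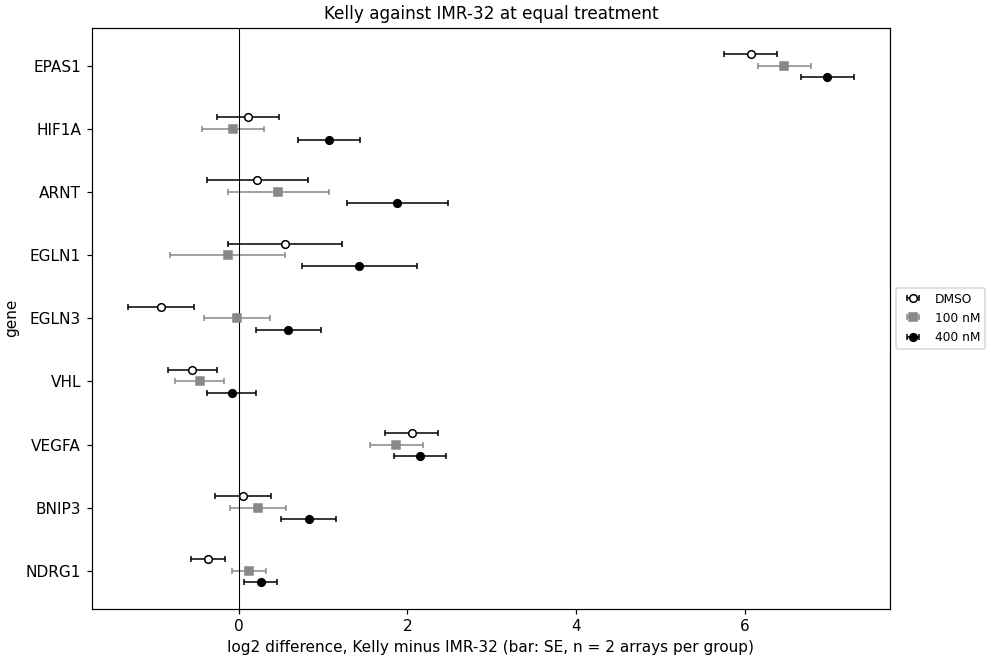
Log2 difference of Kelly minus IMR-32 cells (horizontal axis) for 9 genes with DMSO, 100 nM and 400 nM THZ531, with the standard error (n = 2 arrays per group). EPAS1 lies between 6.07 and 6.98 and VEGFA between 1.87 and 2.15, while the genes other than these 2 lie between -0.92 and 1.88; under median centring or quantile normalization NDRG1 at 400 nM and HIF1A, EGLN1 and EGLN3 at 100 nM change sign.

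Among 34 measured of 36 further hypoxia-inducible genes, 4 were lower and 1 higher in Kelly DMSO cells, beside 3.02% and 1.98% of all genes. The list median was -0.05 against -0.11 over all genes. Under median centring and under quantile normalization 7 were lower and 4 higher. Of all genes, 4.75% were then lower and 4.48% higher under median centring, and 4.83% and 4.68% under quantile normalization. ADM, the vasodilator peptide adrenomedullin, had 33.2 and 40.6 in Kelly DMSO cells and 443.0 and 478.8 in IMR-32 DMSO cells, a log2 difference of -3.65 ± 0.26 (limma adjusted p = 8.04e-05). PFKFB3, a glycolytic regulator, was lower by -3.58 ± 0.25 and the chemokine receptor CXCR4 by -2.94 ± 0.33 (limma adjusted p = 8.04e-05 and 0.00114). STC2, a secreted glycoprotein, was higher in Kelly by 1.40 ± 0.27 (limma adjusted p = 0.0171). ADM, PFKFB3 and CXCR4 were also called lower in Kelly at 100 nM and at 400 nM. Of 18 further regulators, 1 was called, the chromatin factor MTA1, lower by -1.17 ± 0.26 (limma adjusted p = 0.0379), and of 9 other genes of the VEGF family limma called 0 (median -0.10, 0 with an unadjusted p under 0.05).

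THZ531 at 400 nM lowered 6 of the 9 genes in IMR-32 cells, EPAS1, HIF1A, ARNT, EGLN1, EGLN3 and BNIP3, and raised 0, though EPAS1 turned to 0.07 under median centring. Over all genes 39.0% were called lower and 0.395% higher, and the median gene changed by -0.67 on the log2 scale. In bulk RNA, a lower level in every cell and fewer cells that hold the transcript cannot be told apart. The 9 genes had a median change of -1.23, and 8 of the 9 lay below the median gene. Among the 10685 genes with a mean above the median of all rows, however, the median change was -1.19 and 58.5% were called lower. All 9 had both 400 nM arrays below both DMSO arrays, as did 76.6% of all genes, while 2.71% of all genes had both above.

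All 3 hypoxia factors were among the genes called. ARNT had 58.2 and 48.3 at 400 nM and 257.1 and 338.6 with DMSO, so its groups lay well apart. It fell by 2.48 ± 0.60 on the log2 scale (limma adjusted p = 0.0187), 1.80 below the median gene. HIF1A had 1106.3 and 1012.4 at 400 nM and 2064.4 and 3111.7 with DMSO. It fell by 1.26 ± 0.37 (limma adjusted p = 0.0288), 0.59 below the median gene, and 6 of its 7 other probe sets were also called lower, with changes of -2.00 to -1.46. EPAS1, already dim in this line, fell by 0.97 ± 0.31 (limma adjusted p = 0.0365), 0.30 below the median gene, and its other probe set changed by -0.19 without a call.

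Of the negative regulators, EGLN1 had 111.0 and 91.8 at 400 nM and 461.3 and 584.3 with DMSO, with no overlap. It fell by 2.36 ± 0.68 (limma adjusted p = 0.0273), and both other EGLN1 probe sets were called lower as well. EGLN3 had 20.5 and 15.7 at 400 nM and 58.3 and 61.9 with DMSO, and fell by 1.75 ± 0.39 (limma adjusted p = 0.0176), with 1 of 2 other probe sets called. VHL had 592.7 and 572.1 at 400 nM and 953.7 and 1094.7 with DMSO. Its change of -0.81 ± 0.29 just missed the threshold (limma adjusted p = 0.0511) and turned to 0.23 under median centring and 0.47 under quantile normalization. Its other probe set changed by -0.90 and was called lower (limma adjusted p = 0.0391 over all probe sets).

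Of the target genes, BNIP3 had 930.8 and 796.8 at 400 nM and 1874.2 and 2166.9 with DMSO, and fell by 1.23 ± 0.33 (limma adjusted p = 0.0226). VEGFA and NDRG1 did not pass (log2 changes -0.76 ± 0.31 and -0.51 ± 0.20, limma adjusted p = 0.0773 and 0.0706). Both turned positive under median centring (0.28 for VEGFA, 0.53 for NDRG1) and under quantile normalization (0.76 and 0.85), but the median gene was then itself at 0.37 and 0.18. Relative to it under median centring, EPAS1 lay at -0.30, VHL at -0.14, VEGFA at -0.09 and NDRG1 at 0.16. NDRG1 lay 0.16 above the median gene, the only 1 of the 9 to do so. With any 1 of the 4 arrays left out, 0 of the 9 genes and 0 of all 18244 genes were called, and the adjusted p of the 6 genes ran from 0.058 to 0.227. Under median centring ARNT and EGLN1 stayed called lower, 2 of the 9, beside 15.8% of all genes. Under quantile normalization ARNT and EGLN3 did, again 2 of the 9, beside 11% of all genes.

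**Figure D3:**
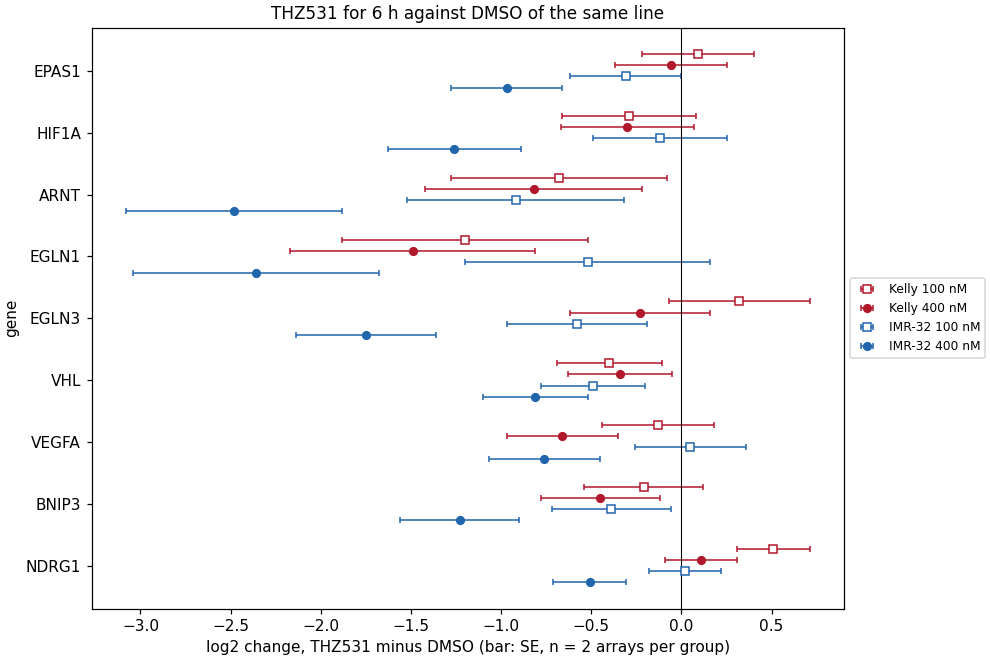
Log2 change with THZ531 against DMSO of the same line (horizontal axis) for 9 genes, Kelly in red and IMR-32 in blue, open squares 100 nM and filled circles 400 nM, bars the standard error (n = 2 arrays per group). The IMR-32 400 nM values, -2.48 to -0.51, lie farthest left for each gene; EPAS1, VHL, VEGFA and NDRG1 turn positive there under median centring, and VHL, VEGFA and NDRG1 under quantile normalization.

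The wider lists of hypoxia genes were also counted in IMR-32 cells at 400 nM, where 39.0% of all genes were called lower as deposited. Of genes with a mean above the median row, 58.5% were called lower, with a median change of -1.19. Over all 18244 genes, 2881 were lower and 3415 higher under median centring, and 2010 and 1353 under quantile normalization. Of 18 regulators 12 were called lower and 0 higher, with a median of -1.89 against -0.67 for all genes, and under median centring 9 were lower and 3 higher, under quantile normalization 7 and 2. The ubiquitin ligase SIAH2, which targets prolyl hydroxylases, fell by 3.01 ± 0.46, CUL2, the cullin of the VHL complex, by 2.75 ± 0.57 and the coactivator CREBBP by 2.66 ± 0.42 (limma adjusted p = 0.0174 each). Of 34 target genes 18 were lower and 0 higher (median -1.29), but 6 lower and 3 higher under either scaling, where the median was -0.25 (median centring) and 0.03 (quantile). KDM3A, a histone demethylase, fell by 2.89 ± 0.49, the lipoprotein receptor VLDLR by 2.87 ± 0.38 and HILPDA, a lipid droplet protein, by 2.74 ± 0.49 (limma adjusted p = 0.0174 each). Of the 9 other VEGF family genes 4 were lower and 0 higher (median -2.01), and under the scalings 4 were lower and 1 or 2 higher. They included the ligands PGF (-3.26 ± 0.66), VEGFC (-2.60 ± 0.56) and VEGFD (-2.07 ± 0.47), with limma adjusted p of 0.0174, 0.0175 and 0.0177. PGF had 122.7 and 99.6 at 400 nM and 906.8 and 1237 with DMSO. In Kelly cells at either dose and in IMR-32 cells at 100 nM, limma called 0 genes of the 3 lists, and at most 5 of a list, the 34 targets in Kelly cells at 400 nM, were lower at an unadjusted p under 0.05.

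In Kelly cells at 400 nM, 0 of the 9 genes and 0% of all genes were called by limma, while 0 of the 9 and, over all genes, 1176 lower and 136 higher had an unadjusted p under 0.05. EGLN1 had the largest change of the 9, with 146.7 and 502.9 at 400 nM and 817.3 and 709.9 with DMSO (log2 change -1.49 ± 0.68, limma adjusted p = 0.503). The 400 nM arrays differed from each other by more than the nearer one did from DMSO. VEGFA changed by -0.66 ± 0.31 (limma adjusted p = 0.503) and EPAS1 by -0.06 ± 0.31, with a 95% interval of -0.77 to 0.64. HIF1A showed the split of the duplicates, with 1639.1 and 2996.0 at 400 nM against 2969.1 and 2505.3 with DMSO. Both 400 nM arrays lay below both DMSO arrays for 6 of the 9 genes, against 48.8% of all genes, and above for 0, against 9.26%.

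At 100 nM limma called 0 of the 9 genes and 0% of all genes in either line. Both 100 nM arrays lay below both DMSO arrays of Kelly cells for ARNT and EGLN1, 2 of 9 genes against 53.6% of all genes, and above them for NDRG1, 1 of 9 against 5.66%. NDRG1 had 207.6 and 161.9 at 100 nM and 131.9 and 126.4 with DMSO, a change of 0.51 ± 0.20 (limma adjusted p = 0.426), and was the only gene of the 9 with an unadjusted p under 0.05 there. All 5 other NDRG1 probe sets changed in the same direction, by 0.24 to 0.61, without a call. The other probe sets of ARNT and EGLN1 did not share their direction throughout, since 4 others of ARNT changed by -0.19 to 0.21 and both others of EGLN1 by 0.28 and 0.55, none called. Over all genes, 1813 lower and 136 higher had an unadjusted p under 0.05 in Kelly cells at 100 nM. In IMR-32 cells at 100 nM, EGLN3 and VHL were below DMSO on both arrays, 2 of 9 against 27.0% of all genes, none of the 9 was above (6.37% of all genes were), and 0 of the 9 had an unadjusted p under 0.05 (723 lower and 83 higher over all genes). ARNT showed how far its duplicates lay apart, with 75.8 and 319.2 at 100 nM against 257.1 and 338.6 with DMSO. Without replicate 2 of the Kelly 100 nM, Kelly 400 nM and IMR-32 100 nM groups together, limma called 5 of the 9 lower in IMR-32 cells at 100 nM, 5 in Kelly cells at 400 nM and 0 in Kelly cells at 100 nM. Over all genes 7899, 6095 and 725 of 18244 were then called lower. Without replicate 1 of the same groups the counts were 0, 0 and 4 of the 9, and 0, 1300 and 6765 of all genes. Each of these groups then held 1 array, assumed to vary like the groups that kept both.

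Whether the 400 nM response differed between the lines was tested directly. The Kelly change minus the IMR-32 change was called for 0 of the 9 genes and 0% of all genes by limma. At an unadjusted p under 0.05 it was positive for 1871 and negative for 33 genes of all, and for 1 of the 9, EGLN3 (1.52 ± 0.56, limma adjusted p = 0.449). For EPAS1 it was 0.91 ± 0.44 (limma adjusted p = 0.449), so the fall of EPAS1 in IMR-32 cells was not shown to differ from its change in Kelly cells. After 400 nM, HIF1A, ARNT and BNIP3 stood higher in Kelly than in IMR-32 cells by 1.07 ± 0.37, 1.88 ± 0.60 and 0.83 ± 0.33, without passing (limma adjusted p = 0.106, 0.0829 and 0.146). Of the 4 other ARNT probe sets 2 were called higher (limma adjusted p = 0.0192 and 0.0214 over all probe sets). EGLN1 stood 1.43 ± 0.68 higher without passing (limma adjusted p = 0.215), while both its other probe sets were called, at 2.11 and 2.17 (limma adjusted p = 0.00369 and 0.00854 over all probe sets). The median gene was then 0.33 higher in Kelly.

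**Figure D4:**
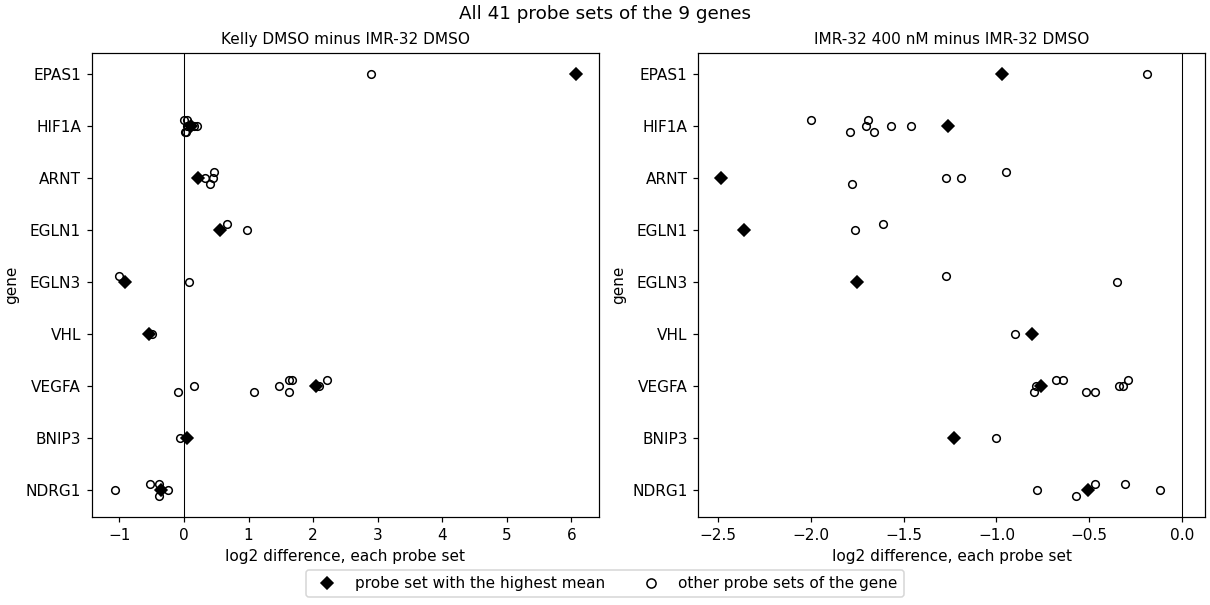
Log2 difference of each of the 41 probe sets (horizontal axes) for Kelly DMSO minus IMR-32 DMSO (left) and IMR-32 400 nM minus IMR-32 DMSO (right); diamonds are the probe sets with the highest mean and circles the others. Both EPAS1 probe sets are positive on the left, at 2.89 and 6.07, and all 41 are below 0 on the right as deposited; under median centring the diamonds of EPAS1, VHL, VEGFA and NDRG1 turn positive there, and under quantile normalization those of VHL, VEGFA and NDRG1.

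Of the further targets, 4 of 34 were called higher in Kelly than in IMR-32 cells at 400 nM and 3 lower, beside 8.58% and 1.69% of all genes, with a median of 0.31 against 0.33 for all genes. SLC2A1, the glucose transporter GLUT1, had 941.9 and 844.4 in Kelly and 100.7 and 92.9 in IMR-32 cells at that dose, a log2 difference of 3.20 ± 0.49 (limma adjusted p = 0.00493), and was higher by 2.19 ± 0.49 at 100 nM (limma adjusted p = 0.0345). HILPDA was higher by 3.03 ± 0.49 and the mitochondrial protein FAM162A by 1.82 ± 0.37 (limma adjusted p = 0.00679 and 0.0176). Of the 18 regulators, SIAH2 (2.08 ± 0.46), EP300 (2.18 ± 0.57) and CREBBP (1.57 ± 0.42) were higher and CITED2, which competes with the hypoxia factors for those coactivators, was lower (-1.62 ± 0.41), with limma adjusted p of 0.0245, 0.046, 0.0497 and 0.039.

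The genes whose levels followed EPAS1 most closely over the 12 arrays were GNG3 (r = 0.999), DLK1 (r = 0.999) and TG (r = 0.998), among 10676 genes with a mean above the median row. VEGFA was followed by CDYL (r = 0.989), HOXC8 (r = 0.987) and SHOX2 (r = 0.986). These coefficients describe the gap between the same 2 lines rather than 12 independent points. HIF1A, which did not separate the lines, was followed by PLOD2 (r = 0.974), RCHY1 (r = 0.972) and CHRNA5 (r = 0.97), and all 12 arrays share the doses and the scaling. PLOD2, a collagen lysyl hydroxylase, is on the list of hypoxia-inducible genes, while RCHY1 and CHRNA5 are not. A link of PLOD2 to HIF1A was not tested.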

How the data were processed

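Gene expression was measured on 12 PrimeView arrays. The authors read the arrays in R (version 3.1.3 in the submitters' processing notes) with affy and MAS5, adjusted them for cell number and renormalised them by loess on the ERCC spike-ins, and the deposited values are linear intensities per probe set, used here after log2. Because scaling rests on spike-ins, a loss of RNA per cell stays in the values, and alternatives that centre arrays remove it. Groups were taken from the sample titles, and 0 value columns were left unused. Of 49495 rows, 45278 had 1 gene symbol, and each of 18244 genes was represented by its brightest probe set on average. Group means of all 12 arrays were fitted with limma 3.58.1 in R 4.3.3 (lmFit and eBayes, 6 residual degrees of freedom), with Benjamini-Hochberg adjustment over all genes at an FDR of 0.05, as the study's methods name, over 8 comparisons. Errors are standard errors of the fit, and an exact permutation test of 2 arrays against 2 could not go below 0.3333, so none was used. Scripts were tested on simulated data. The members and lists were chosen with earlier results of these data known. Named are all members, up to 3 genes per list and direction with the smallest adjusted p where any passed, and the 3 genes nearest in pattern to EPAS1, HIF1A and VEGFA. Alternatives were median centring, quantile normalization, equal ERCC means, a pseudocount of 16, the mean of all probe sets, every probe set fitted separately, rows above the median, only the arrays compared, trended and robust eBayes, a block of replicate numbers, and each array omitted in turn. Promoters came from RefSeq tables on GRCh38.p14, and motifs were searched on both strands.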

Additional observations from a re-analysis of the deposited data

Results flagged for a closer look

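The NDRG1 arrays at 400 nM lay on opposite sides of their line's DMSO mean, at 0.20 and 0.03 in Kelly cells and at -0.48 and -0.55 in IMR-32 cells on the log2 scale. Neither change was called, and the Kelly change of 0.11 had a 95% interval of -0.34 to 0.57. The means differed by 0.63. That all arrays of a line move one way was not a test; the limma contrast of the same difference had an adjusted p of 0.449, and it was 0.02 under median centring and -0.17 under quantile normalization.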

How the results depend on the processing

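The 6 genes called lower in IMR-32 cells at 400 nM became 2 with median centring and 2 with quantile normalization, and 0 on leaving out any 1 of the 4 arrays. The median gene there was at -0.67 as deposited, 0.37 under median centring and 0.18 under quantile normalization. Of all genes 39.0%, 15.8% and 11% were called lower in turn. Fitting only the arrays compared called 54.9% of all genes lower in this comparison. Of 72 changes (9 genes in 8 comparisons), median centring turned the sign of 21, among them 1 that had been called (EPAS1 in IMR-32 at 400 nM), and quantile normalization turned 18. Among the changes printed, median centring gave 0.07 for EPAS1, 0.23 for VHL, 0.28 for VEGFA and 0.53 for NDRG1 in IMR-32 cells at 400 nM, and 0.37 for EPAS1, 0.13 for HIF1A, 0.20 for EGLN3 and 0.09 for VHL in Kelly cells at 400 nM. Quantile normalization gave 0.47 for VHL, 0.76 for VEGFA and 0.85 for NDRG1 in IMR-32 cells at 400 nM, 0.08 for VHL in IMR-32 cells at 100 nM, 0.25 for VHL in Kelly cells at 400 nM, and -0.17 for the difference of the NDRG1 changes. Averaging all probe sets gave -0.01 for BNIP3 between the DMSO groups. It gave 4 genes higher in Kelly at 400 nM (8.34% of all genes), against 2 (8.58% of all genes). Fitting only the arrays compared gave 1 gene lower in Kelly with DMSO (18.4% of all genes) and 0 higher at 100 nM (0% of all genes). It gave 2 with a more positive 400 nM change in Kelly (11.4% of all genes). The cause was not tested. Leaving out 1 array did not always keep the call of VEGFA between the lines with DMSO and at 400 nM, as given above. It moved HIF1A in Kelly cells at 400 nM over -0.73 to 0.14, EGLN3 there over -0.52 to 0.06, and, between the DMSO groups, HIF1A over -0.19 to 0.40 and BNIP3 over -0.05 to 0.16. Counts of genes higher in Kelly include EPAS1, given as a description.

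Chosen after seeing the data, leaving out replicate 2 of Kelly 100 nM, Kelly 400 nM and IMR-32 100 nM together gave 5 genes lower in IMR-32 cells at 100 nM, 5 lower in Kelly cells at 400 nM, 1 lower and 2 higher in Kelly with DMSO, 6 higher in Kelly at 100 nM and 2 with a more positive change in Kelly. Over all 18244 genes these counts were 7899, 6095, 3465 lower and 1317 higher, 4706 and 2581. Leaving out replicate 1 of the same groups gave 4 lower in Kelly cells at 100 nM, 1 lower in Kelly with DMSO, 4 lower in Kelly than IMR-32 at 100 nM, 7 higher at 400 nM and 5 with a more positive change, and over all genes 6765, 3465, 7240, 6493 and 6082. Both cases kept the same arrays of IMR-32 cells at 400 nM and with DMSO. The spread also came from the same arrays in both, so this comparison could not differ between the cases.

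The labels do not say that equal numbers share a culture, and replicate differences of the groups compared correlated at -0.38 to 0.26, so the numbers were not taken as pairs. With the replicate number as a block 5 genes were called lower in IMR-32 cells at 400 nM, beside 34% of all genes. EPAS1 was missing at -0.97 (limma adjusted p = 0.0534), and no other count of members moved. Crossing the numbers where the correlation was under -0.1 gave 0 genes for Kelly cells at 400 nM, beside 0% of all genes. It gave 2 higher in Kelly at 100 nM, beside 3.4% of all genes.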
